A study of Drosophila melanogaster with 27 samples.

Results

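Females with 3 copies of chromosome 4 (triplo 4th) were compared with and without a functional Pof gene, which gave 2 groups of 3 arrays, 6 of the 27 arrays of the series. The members were chosen by the group labels alone. Each array was hybridized with total RNA of 10 pooled adult females taken within a day of eclosion, and an Affymetrix Drosophila Genome version 2 array gave 1 log2 value for each probe set. The question was whether chromosome 4 genes at 3 copies were expressed at another level when Pof was mutant, and which other genes differed. In the pof-mutant triplo 4th group both second chromosomes carried the deletion allele PofD119. One parent was heterozygous for PofD119 over the CyO balancer and carried C(4)RM, marked with sv spa-pol, a compound chromosome 4 that delivers a pair of attached copies. The other came from the homozygous PofD119 stock, which carried y1 w67c23. The Dp(2;2)Cam3/+ triplo 4th group had the same compound chromosome 4 in one parent and no Pof mutation in its label, but carried a duplication of a stretch of 2L over a normal second chromosome. The other parent was Dp(2;2)Cam3/CyO, and the progeny with 3 copies were picked by the absence of the Minute phenotype that marks flies with a single chromosome 4. All 6 arrays therefore shared 3 copies of chromosome 4 and a compound chromosome 4 parent. The groups also differed in the duplication, in the rest of chromosome 2 and in the cross, so that loss of Pof, an extra copy of the 2L stretch and the genetic background cannot be told apart in this comparison. A pair of groups with 2 copies of chromosome 4, pof-mutant flies of the homozygous stock and the wild type strain y1 w67c23, was used where the same Pof difference was wanted at another dose. Both pof-mutant groups drew on the homozygous PofD119 stock, so loss of Pof and other traits of that stock cannot be told apart at either dose. None of the sources used here held probe or gene sequences, and none are shown.

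Chromosome 4 is the smallest chromosome of the fly and carries its genes in a heterochromatin-like setting, rich in the heterochromatin protein HP1 and methylated histone H3. Pof encodes an RNA-binding protein that coats this chromosome and no other whole chromosome, binds mainly active genes there together with HP1, and is known to stimulate their output, while HP1 tends to repress it. Unlike the large autosomes, it can lose or gain a whole copy in viable adults.

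Of 11941 genes with a named probe set, 7386 had a wild type mean above 6 (log2) and were called expressed. They included 50 of 65 measured genes on chromosome 4 and 202 of 298 in the 2L duplication, from Ugt37B1 to LManVI in gene order. The ends of that stretch had been found in the values of the duplication group itself, so its genes are given as a description with no test. Arrays within the pof-mutant triplo 4th group correlated at 0.67 to 0.92 and within the duplication group at 0.84 to 0.95. Pof-mutant triplo 4th replicate 2 stood apart from the other 5 arrays, with correlations of 0.56 to 0.87, and results are given with and without it below. Chorion genes, which follicle cells express late in egg development, had a mean log2 level of 12.34 and 11.51 in pof-mutant triplo 4th replicates 2 and 3 and of 11.84 in duplication replicate 3, against 5.72, 5.55 and 5.66 in the other 3 arrays. Arrays with high chorion levels were thus found in both groups. The 9 defining male markers, accessory gland and sperm genes, read 3.43 to 5.47 in these 6 arrays, below the expression threshold. In the groups with 2 copies of chromosome 4, pof-mutant arrays correlated at 0.62 to 0.90 and wild type arrays at 0.95 to 0.98. Chorion means were 10.79, 5.77 and 8.38 in the pof-mutant arrays and 6.78, 5.59 and 10.25 in wild type.

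The Pof probe set did not separate the groups. It read 7.09, 9.03 and 7.33 (log2) in the arrays labelled pof-mutant triplo 4th and 6.84, 7.24 and 8.03 in the duplication arrays, a difference of 0.45 (SE 0.46, limma adjusted p = 0.514) that became −0.16 without replicate 2 of the former. At 2 copies it read 9.11, 11.04 and 8.93 in the arrays labelled pof-mutant and 7.69, 7.44 and 7.91 in wild type, with no overlap, so that the mutant arrays stood higher, not lower, by 2.01 (SE 0.46, limma adjusted p = 0.0172). Whether the probe set lies in the part removed by the deletion is not given in the sources used here, so the label of the mutant arrays could not be tested on it, and every direction given here follows the labels. The yellow gene (y), needed for black pigment, read 7.35, 5.44 and 6.85 in pof-mutant triplo 4th and 8.52, 8.75 and 8.03 in the duplication group, with no overlap. It was lower by −1.89 (SE 0.42, limma adjusted p = 0.0137), and by −1.33 without replicate 2 (adjusted p = 0.110). In wild type y read 6.41, 6.52 and 6.31, so it was the duplication group that stood apart. The wild type strain is itself marked y1, as was the homozygous PofD119 stock, so wild type is no reference here for a normal y level. The duplication group was 2.02 above wild type (limma adjusted p = 0.00831), and pof-mutant triplo 4th was 0.13 above wild type (adjusted p = 0.943).

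Chromosome 4 genes were on average lower in pof-mutant triplo 4th flies than in Dp(2;2)Cam3/+ triplo 4th flies, although both had 3 copies. Relative to the wild type mean, the 50 expressed genes averaged 0.32, −0.29 and 0.13 (log2) in the pof-mutant triplo 4th arrays and 0.74, 0.48 and 0.25 in the duplication arrays. The arrays of both groups overlapped, because pof-mutant triplo 4th replicate 1 stood above duplication replicate 3. The mean difference was −0.44 (SE over arrays 0.23), which is 73.7% of the level in the duplication group. The median gene differed by −0.35, against 0.06 for all expressed genes, and 35 of 50 genes lay below 0. Genes of the other regions outside the duplication averaged −0.02 to 0.09 in the same comparison, on 2L outside the duplication 0.02, on 2R −0.02, on 3L 0.03, on 3R −0.0013 and on X 0.09. Without pof-mutant triplo 4th replicate 2 the chromosome 4 mean was −0.27, and without replicate 1 it was −0.57. Without duplication replicate 1 it was −0.32, and without duplication replicate 3 it was −0.56.

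Beside the wild type, which both comparisons share as control, the mean over chromosome 4 genes was 0.05 ± 0.31 (SD, n = 3) in pof-mutant triplo 4th and 0.49 ± 0.25 (SD, n = 3) in Dp(2;2)Cam3/+ triplo 4th. The level of 3 copies over 2 would be 0.58 if output followed copy number. At 2 copies, the pof-mutant arrays stood at −0.56, −0.68 and −0.10.

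**Figure D1:**
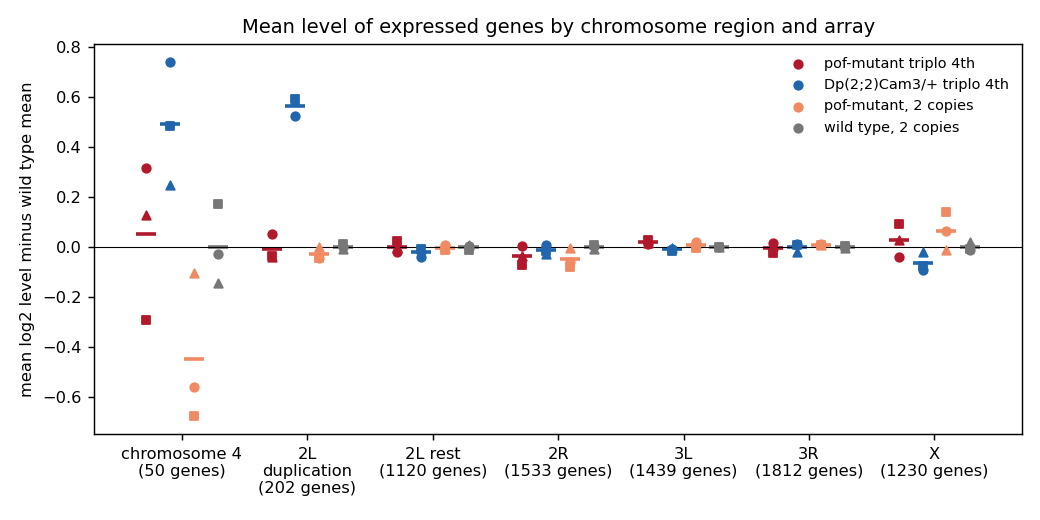
Mean log2 level of the expressed genes of each chromosome region minus the wild type mean (vertical axis) for the arrays of 4 groups; circles, squares and triangles are replicates 1, 2 and 3, and bars are group means. Chromosome 4 is lower in pof-mutant triplo 4th (mean 0.05) than in Dp(2;2)Cam3/+ triplo 4th (mean 0.49) with overlapping arrays, the 2L duplication separates them without overlap, and the other regions stay near 0.

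Across all expressed genes, 250 passed a limma adjusted p under 0.05 between the groups, 3.38% of 7386. Of these, 172 were lower (2.33%) and 78 higher (1.06%) in pof-mutant triplo 4th flies. On chromosome 4, 3 of 50 genes passed, all lower, which is 6% of the chromosome. They were Zip102B, dpr7 and Pur-alpha. Values of all 3 arrays lay below all 3 of the duplication group for 2 chromosome 4 genes, Zip102B and ATPsynbeta, against 6.08% of all expressed genes, and no chromosome 4 gene lay above without overlap, against 8.38%. At an unadjusted p under 0.05, 15 chromosome 4 genes were lower and 1 higher, against 10.5% of all expressed genes lower and 9.19% higher.

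Zip102B, a zinc transporter gene of the ZIP family, had the largest difference on the chromosome. It read 6.06, 5.95 and 6.09 (log2) in pof-mutant triplo 4th and 8.30, 8.07 and 7.80 in the duplication group. The groups were more than 1 log2 unit apart at their nearest arrays, and replicate 2 of pof-mutant triplo 4th did not stand out. The difference was −2.02 (SE 0.16, limma adjusted p = 5.78e-08) and −1.98 without that replicate. At 2 copies Zip102B read 6.19, 6.33 and 5.54 in pof-mutant and 8.87, 8.98 and 8.74 in wild type. Both pof-mutant means, 6.02 at 2 copies and 6.03 at 3, lay at the expression threshold, above which the study held levels to be reliably measured. The size of the fall is therefore uncertain, and nothing is read from how close both means are. Of 19 other expressed zinc and iron transport genes outside both regions, none passed, and their differences ran from −0.55 to 0.36.

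The 2 other genes that passed depended on single arrays. Pur-alpha, which encodes a nucleic acid binding protein, read 9.33, 8.27 and 8.69 against 10.25, 9.61 and 9.30. Its difference was −0.95 (SE 0.25, limma adjusted p = 0.0381) and −0.71 without replicate 2 (adjusted p = 0.248). The cell surface gene dpr7, of a family of immunoglobulin proteins of neurons, read 7.62, 5.98 and 6.87 against 8.77, 8.15 and 7.61, a difference of −1.35 (SE 0.36, limma adjusted p = 0.0399) and −0.93 without replicate 2 (adjusted p = 0.280). For both genes, the highest pof-mutant array lay just above the lowest duplication array.

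The other chromosome 4 genes with the lowest values did not pass. Gat, which encodes a GABA transporter, read 7.98, 5.59 and 6.73 in pof-mutant triplo 4th and 9.34, 8.36 and 7.46 in the duplication group, a difference of −1.62 (SE 0.54, limma adjusted p = 0.111). Its lowest array was replicate 2, and the difference without it was −1.03. CG33978 read 8.17, 5.32 and 7.23 against 9.43, 8.67 and 7.67 (−1.68). CG31997 differed by −1.41 and yellow-h, a relative of yellow, by −1.38, and both had their lowest array in replicate 2 (8.18 and 4.04). Among genes named for their roles, the vesicle priming gene unc-13 differed by −0.52, the synaptotagmin gene Syt7 by −0.64, the vesicle release gene Cadps by −0.56 and the calcium pump gene PMCA by −0.58. Without replicate 2 the differences of CG33978, CG31997 and yellow-h were −0.89, −0.58 and −0.60.

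Of a list of 12 chromosome 4 transcription factor genes, 10 were measured and 5 expressed. None of the 5 passed, and their median was −0.44 against 0.06 over all genes. NfI, of the nuclear factor I family, read 7.49, 4.77 and 6.09 against 8.10, 7.53 and 6.61 (−1.30). Sox102F, of the SoxD family, read 7.52, 6.22 and 6.83 against 8.16, 7.84 and 7.33 (−0.92, limma adjusted p = 0.106). The Hedgehog pathway factor ci differed by −0.44, dati by −0.28, and the Pax6 gene toy by 0.02. In each of the 5 genes replicate 2 of pof-mutant triplo 4th gave the lowest of the 6 values. The other Pax6 gene, ey, with sv, zfh2, onecut and fd102C, was measured but below the threshold.

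ATPsynbeta, the catalytic subunit of the mitochondrial ATP synthase, read 13.68, 13.25 and 13.29 against 14.09, 13.90 and 13.70, lower in each array but by −0.49 only (SE 0.17, limma adjusted p = 0.115). The translation initiation gene eIF4G1 differed by 0.08, the TFIID subunit gene Taf3 by 0.05 and the microRNA silencing gene gw by 0.14. Projectin (bt), a giant muscle protein, read 12.87, 11.46 and 12.62 against 12.87, 12.69 and 12.37, a difference of −0.33, with replicate 2 the lowest array. The 6 highest differences on the chromosome were those of the Mediator gene MED26 (0.51), the translational repressor gene 4E-T (0.30), CG11360 (0.27), the proteasome shuttle gene Rad23 (0.24), CG11076 (0.22) and Gyf (0.21), and none passed. MED26 read 10.55, 11.58 and 11.17 against 10.46, 10.49 and 10.82. In each of the 6, replicate 2 of pof-mutant triplo 4th was the highest of the 6 triplo 4th arrays. Without it MED26 differed by 0.27, and 4E-T, CG11360 and Rad23 turned to −0.038, −0.40 and −0.042.

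The spread of chromosome 4 genes in replicate 2 went with the gene lists of other tissues in the same array. The mean log2 level of 24 muscle structure genes was 10.82 there and 12.10 to 12.74 in the other 5 arrays. The mean of 12 egg activation and maternal cell cycle genes was 10.69 there and 6.70 to 9.65 in the others. Within both groups, arrays with a higher ovary gene score (mean of chorion, eggshell and germline genes) had a lower chromosome 4 mean. The score was 7.67, 11.17 and 10.40 in the pof-mutant triplo 4th arrays and 7.10, 8.71 and 10.59 in the duplication arrays. In RNA of whole flies, fewer cells of a type and less RNA per cell cannot be told apart, and the part of tissue make-up in the chromosome 4 difference was not tested beyond the fit that takes an ovary gene score as a covariate, in which the chromosome 4 mean was −0.32.

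**Figure D2:**
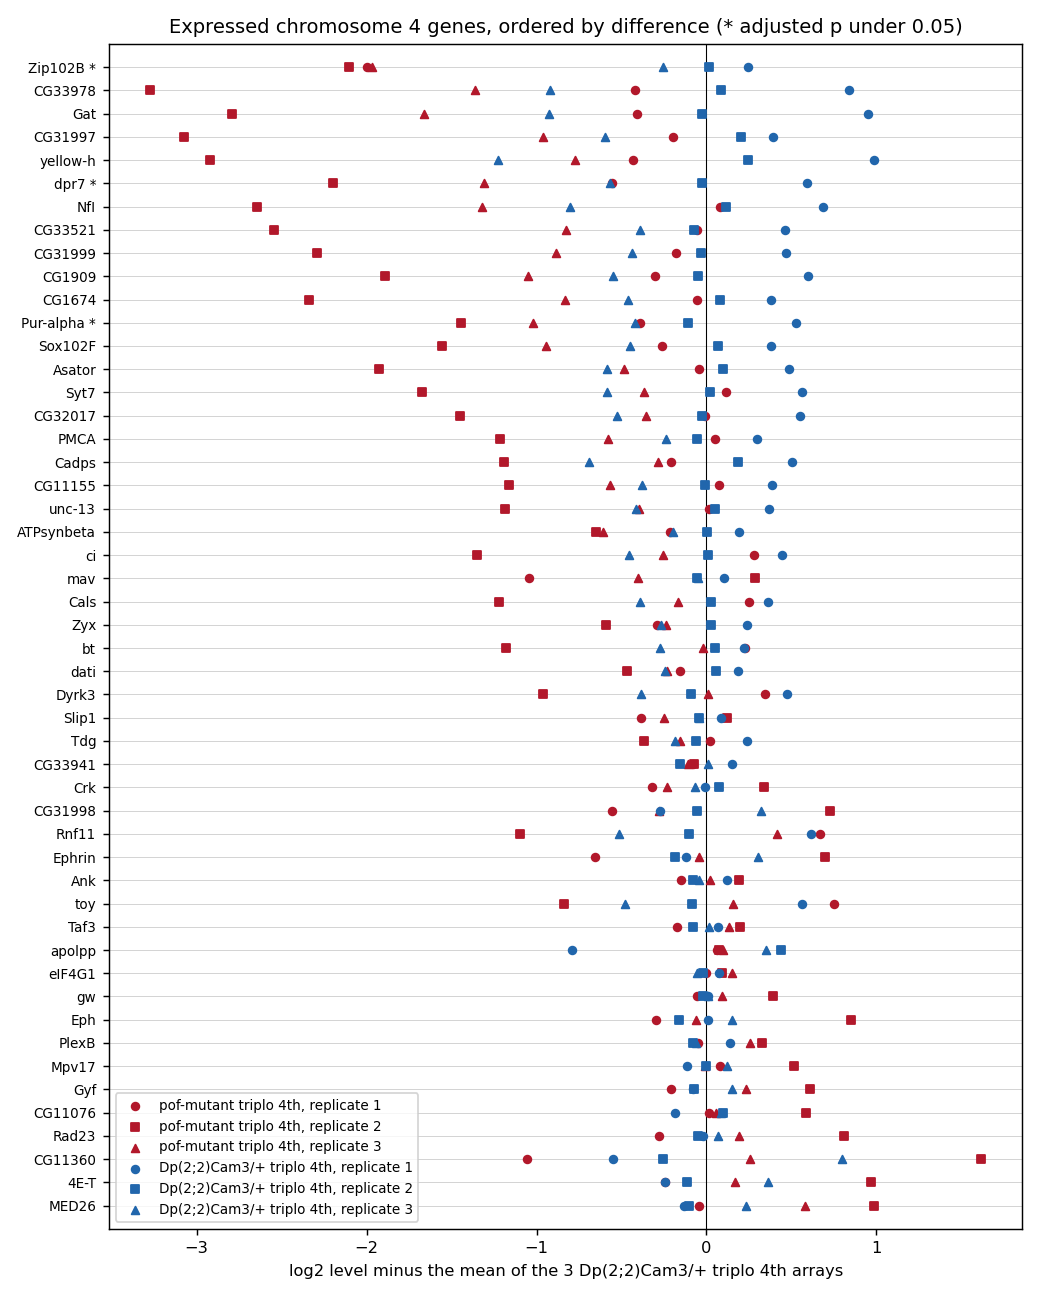
Log2 level of each of the 50 expressed chromosome 4 genes minus the mean of the 3 Dp(2;2)Cam3/+ triplo 4th arrays (horizontal axis), with 1 point per array, ordered by the difference between the groups; stars mark the 3 genes that passed. Zip102B is the gene in which all 3 pof-mutant triplo 4th arrays lie together far below, and for most other genes at both ends replicate 2 (red squares) lies outermost.

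Below the expression threshold, RhoGAP102A was the 1 chromosome 4 gene that passed when genes were tested without a filter. It read 5.89, 5.04 and 5.52 against 6.78, 6.51 and 6.11, so that the arrays did not overlap, and its wild type mean of 5.98 lay just under the threshold of 6. It was singled out after its values were seen. The other 14 unexpressed genes did not pass.

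The same Pof difference at 2 copies of chromosome 4 gave a similar average. The pof-mutant minus wild type mean over the 50 genes was −0.45 (SE over arrays 0.20), against −0.44 at 3 copies, and the difference between both was 0.01 (SE over arrays 0.30). These comparisons share no array. Over the 50 genes the pair of differences correlated with r = 0.79 (Spearman rho 0.78), as a description across genes, which share their arrays and are not replicates. The 7134 genes outside chromosome 4 and the duplication gave r = 0.73 and rho = 0.76, so that the correlation on chromosome 4 was close to that of the rest of the genome. Of the 50 genes, 31 were lower and 10 higher in both comparisons, 4 were lower at 3 copies only and 5 higher at 3 copies only.

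No chromosome 4 gene passed the limma test of the difference between the comparisons, in which 25 of all genes passed (0.338%). At an unadjusted p under 0.05 there were 3, against 578 of all expressed genes. Zip102B was lower by −2.84 at 2 copies and by −2.02 at 3, a difference of 0.82 (SE 0.23, adjusted p = 0.155). Its pof-mutant means were 6.02 and 6.03, while the duplication group stood below wild type, at 8.05 against 8.86 (−0.81, limma adjusted p = 0.00619). The 0.82 is therefore not read as a weaker effect of Pof at 3 copies. The translation gene eIF4G1 stood at −0.41 and 0.08 (adjusted p = 0.316), and CG1909 at 0.21 and −1.08 (adjusted p = 0.614). The largest differences between the comparisons on the chromosome were −1.30 and 1.06, the latter in Rnf11. With SEs of this size, a p that misses the threshold does not show equal differences at both doses.

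**Figure D3:**
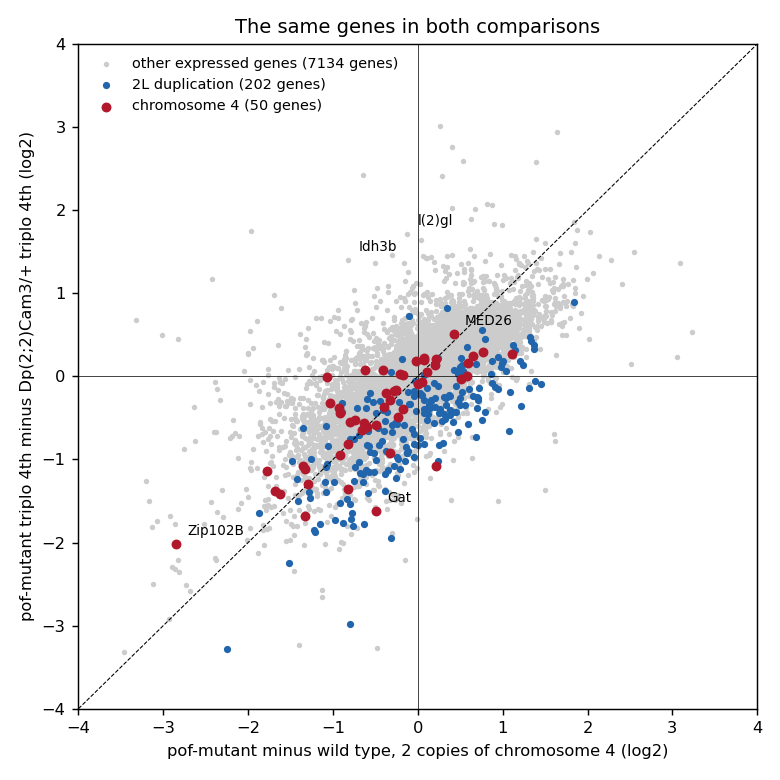
Difference of each expressed gene at 3 copies of chromosome 4 (vertical axis, log2) against its difference at 2 copies (horizontal axis, log2), with equal values on the dashed line. The 50 chromosome 4 genes (red, r = 0.79) follow the band of all other genes (grey, r = 0.73), genes of the 2L duplication (blue) lie below the band, and l(2)gl and Idh3b lie above it.

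The 2L duplication separated the groups in every array. Its 202 expressed genes averaged 0.05, −0.04 and −0.04 (log2, relative to the wild type mean) in pof-mutant triplo 4th, which had 2 copies, and 0.52, 0.59 and 0.58 in the duplication group, which had 3. The mean difference was −0.57, 67.2% of the duplication group, where 2 copies against 3 would give −0.58. The median was −0.44, and 168 of 202 genes lay below 0. By the same limma fit, 43 of these genes were called lower and 0 higher (21.3%, against 2.86% outside both regions). Below without overlap lay 81, against 6.08% of all expressed genes. Because the ends of the stretch were found in these values, both counts were partly fixed in advance and are a description, not a test. The gene of HP1 itself lies in this stretch. It read 10.26, 11.23 and 10.47 in pof-mutant triplo 4th and 10.21, 10.61 and 11.07 in the duplication group, a mean difference of 0.02 with overlapping arrays. Replicate 2 of pof-mutant triplo 4th, which stood apart from the other arrays, gave the top value. Its weight in this difference was not tested, so nothing is read from it about the response of HP1 to copy number. The lowest differences in the stretch were CG5181 at −3.28, the gut lining gene Peritrophin-15a at −2.98 and the alpha-mannosidase gene LManIII at −2.24. CG5181 was also lower in pof-mutant flies than in wild type at 2 copies, by −2.25. The highest were Nse1 (0.90), Naglu (0.82), which encodes an N-acetylglucosaminidase, and CG13794 (0.73).

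Outside chromosome 4 and the duplication, 204 of 7134 genes passed, 2.86%, of which 126 were lower (1.77%) and 78 higher (1.09%) in pof-mutant triplo 4th flies. Falls and rises below are pof-mutant triplo 4th against the duplication group, whichever of these groups differed from wild type. The calls rest on the spread of all 9 groups. With the 6 arrays alone only CG5181, in the duplication, and CG31810 passed of all 7386 genes. Without replicate 2 of pof-mutant triplo 4th, 96 genes outside both regions passed, and without its replicate 1, 1239. In the main fit and with each of the 6 arrays left out in turn, 62 genes outside both regions passed every time, 42 lower and 20 higher. By arm, 4.11% of expressed genes passed on 2R, where Pof lies, 3.48% on 2L outside the duplication, 2.59% on 3R, 2.28% on X and 1.88% on 3L. Of the 88 expressed genes nearest to Pof in gene order, 3 passed (3.41%).

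The 12 largest falls and 12 largest rises described here are among called genes whose groups did not overlap and whose name is not a CG or CR number, and most of those falls were also seen in pof-mutant flies with 2 copies. Larger changes without such a name were left out, such as the falls of CG7916 (−3.26), CG31810 (−2.92) and CG9682 (−2.52) and the rises of CG42792 (3.02), CG5953 (2.76) and CG10725 (2.43). Srg2 read 5.81, 5.78 and 4.83 in pof-mutant triplo 4th and 8.23, 8.94 and 9.17 in the duplication group, a fall of −3.31 (SE 0.41, limma adjusted p = 2.99e-05) beside −3.47 at 2 copies. The P450 gene Cyp4p1 read 6.78, 5.85 and 6.21 against 9.12, 8.75 and 8.72, a fall of −2.58 beside −2.69 at 2 copies. Another member of that family, Cyp4e3, fell by −3.23 beside −1.40 at 2 copies, and its lowest array was replicate 2 (6.19). The glutathione transferase gene GstE1 read 8.37, 6.79 and 7.61 against 10.04, 9.98 and 9.82 (−2.36 beside −2.81). The actin regulator gene dia, a formin, read 6.55, 6.90 and 6.62 against 8.91, 8.71 and 9.01 (−2.18 beside −2.39). All 5 genes had groups that did not overlap.

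Further falls among these 12 were those of the mucin gene Muc68D (−2.49), the retinol dehydrogenase gene Rdh1 (−2.21), the glycosyltransferase gene Ugt35C1 (−2.12), Lapsyn (−2.03), which encodes a leucine-rich repeat protein, CheA75a (−1.98), the organic anion transporter gene Oatp58Db (−1.97) and SmydA-2 (−1.97). Of the 12, all but Cyp4e3 also passed in pof-mutant against wild type at 2 copies. Without replicate 2, Cyp4e3 and SmydA-2 lost their calls (adjusted p = 0.0694 and 0.0736).

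Among rises, gkt, a DNA repair gene of the tyrosyl-DNA phosphodiesterase family, read 8.38, 9.32 and 8.69 in pof-mutant triplo 4th and 6.66, 6.86 and 7.31 in the duplication group, a rise of 1.85 (SE 0.29, limma adjusted p = 0.00059) beside 1.84 at 2 copies. Pdrg1 read 8.45, 9.50 and 9.14 against 7.13, 7.36 and 7.40, a rise of 1.73 beside 2.03. The gene of the kinase assembly factor Mat1 rose by 1.49 beside 1.68. The cell polarity gene l(2)gl read 8.62, 8.19 and 8.67 against 6.84, 6.74 and 6.77, a rise of 1.71 (SE 0.13, limma adjusted p = 4.6e-08), while it read 7.98 to 8.40 in pof-mutant and 8.34 to 8.37 in wild type. It was thus the duplication group that stood low, and the test between the comparisons gave 1.85 (SE 0.19, adjusted p = 1.01e-05). Its polarity partner aPKC read 0.66 higher and did not pass (adjusted p = 0.165). For aPKC the test between the comparisons did pass (1.70, adjusted p = 0.0416), but there wild type stood highest. Its mean was 8.34 in wild type, against 7.77 in pof-mutant triplo 4th, 7.11 in the duplication group and 7.30 in pof-mutant. The mitochondrial isocitrate dehydrogenase gene Idh3b rose by 1.41, with means of 11.36 and 9.95, beside −0.82 at 2 copies, and the test between the comparisons gave 2.23 (adjusted p = 0.0416). The Notch ligand gene Delta rose by 1.38 beside 0.19, a difference of 1.19 that did not pass (adjusted p = 0.206). For Idh3b and Delta too the duplication group stood lowest, at means of 9.95 and 7.44 against 11.94 and 9.02 in wild type. The duplication group minus wild type gave −1.99 and −1.58 (limma adjusted p = 0.00141 and 0.000891). For neither gene did pof-mutant triplo 4th minus wild type pass (adjusted p = 0.811 and 0.925).

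Other rises among these 12 were Adk3 (1.48), an adenylate kinase gene, Topors (1.46), a ubiquitin ligase gene, Cyp6w1 (1.36), atos (1.36), fal (1.19) and the RNA-binding gene Imp (1.18). Without replicate 2 of pof-mutant triplo 4th, Mat1, Topors, Cyp6w1, fal and Imp did not pass (adjusted p = 0.106, 0.229, 0.0938, 0.230 and 0.234).

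**Figure D4:**
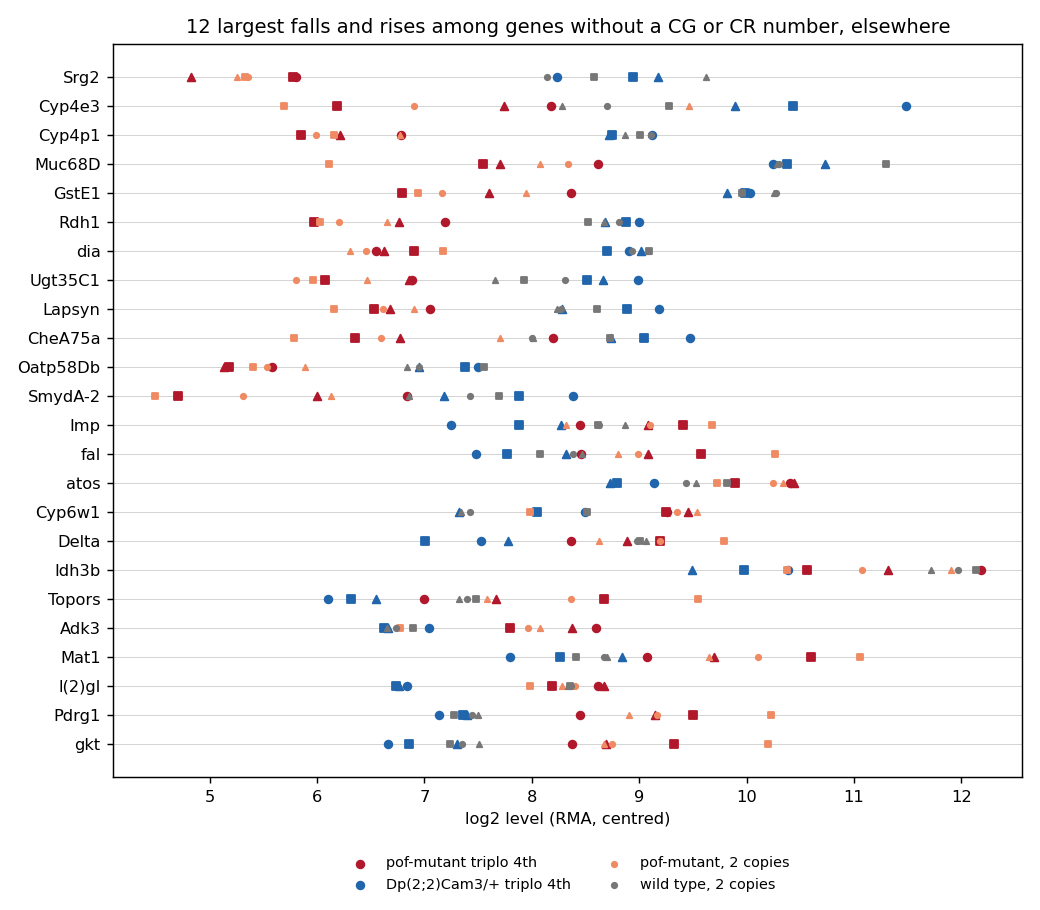
Log2 level (horizontal axis) in each array of the 12 largest falls and 12 largest rises outside chromosome 4 and the duplication, among genes whose name is not a CG or CR number, with circles, squares and triangles for replicates 1, 2 and 3. Most falls, such as Srg2 (−3.31), are low in both pof-mutant groups, and some rises, such as l(2)gl (1.71) and Delta (1.38), are low in the duplication group alone.

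Genes called in the same direction at both doses of chromosome 4 numbered 56 outside chromosome 4 and the duplication, 47 lower and 9 higher. They were 27.5% of the 204 genes called at 3 copies and 20.7% of the 271 called at 2. Because both pof-mutant groups drew on the homozygous PofD119 stock, a shared call cannot tell loss of Pof from other differences of that stock. In the comparison at 2 copies, 3.78% of all expressed genes were called, 2.42% lower and 1.35% higher. A further 2 genes were called in opposite directions. The expression filter uses the wild type mean, 1 arm of the comparison at 2 copies, so it removes genes that are high in pof-mutant flies alone and partly sets the balance of lower and higher calls. With no filter, a setting added after seeing the data, the genes called the same way numbered 71, 55 lower and 16 higher. By arm, the 56 were 23 genes of 2R (1.5% of expressed genes), 10 of 2L outside the duplication (0.893%), 13 of 3R (0.717%), 6 of 3L (0.417%) and 4 of X (0.325%). Of the 62 genes that passed with every array left out, 32 were called the same way at 2 copies (51.6%).

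Calls were spread over several detoxification families. Of 55 expressed cytochrome P450 genes, enzymes that oxidise foreign compounds, steroids and fatty acids, 7 fell (12.7%, against 1.77% of genes outside both regions) and 2 rose, with a median of −0.37. They included Cyp4e3, Cyp4p1 and Cyp9c1, which read 6.11, 5.44 and 6.34 against 7.96, 7.65 and 7.32 (−1.68). Of 43 glutathione and UDP-glycosyl transferase genes, 8 fell (18.6%) and 0 rose, with a median of −0.30. GstE5 (−1.83), Ugt36E1 (−1.61) and Ugt37A3 (−1.60) had groups at least 1 log2 unit apart. Replicate 2 was the lowest array of both lists (means 7.03 and 7.96). Without it 4 P450 genes and 4 transferase genes fell, while 96 of 7134 genes outside both regions passed in either direction. At 2 copies, 15 P450 and 12 transferase genes were called lower in pof-mutant than in wild type, against 2.42% of all expressed genes. Called higher there were 0 and 1, against 1.35%. The count among P450 genes was 6 with centring on the median.

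Energy metabolism lists had medians below 0. Of 26 glycolysis and TCA cycle genes, 3 fell (11.5%, against 1.77% of genes outside both regions) and 1 rose (3.85%, against 1.09%). Pepck2, an enzyme of gluconeogenesis, fell by −1.49 beside −3.16 at 2 copies, the glycolytic genes Pgi and Pgk fell by −0.76 and −0.58, and Idh3b rose. Without replicate 2, Pgi and Pgk did not pass (adjusted p = 0.201 and 0.325). All 53 oxidative phosphorylation genes were below 0 with a median of −0.46, and 0 passed. Their mean was 11.26 in replicate 2 and 11.89 to 12.48 in the other arrays. All 25 cuticle protein genes were also below 0 (median −0.67, 0 passed), with a mean of 7.19 in replicate 2 and 8.44 to 9.33 elsewhere. The 24 muscle structure genes had a median of −0.47 and 0 passed.

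Sensory, gut and immune lists had 1 or 2 called genes each where any passed. Of 25 odorant-binding and chemosensory genes 2 fell (8%, against the same 1.77%), Obp56g (−1.37) and Obp49a (−1.15), with a list median of −0.83. The cation channel gene trpl fell by −1.11 as 1 of 16 phototransduction genes (6.25%). None of these 3 passed without replicate 2. Of 21 digestive protease genes thetaTry fell (−1.16, 4.76% of the list), of 11 maltase and carbohydrate digestion genes Mal-B2 fell (−0.96, 9.09%), and of 8 peptidoglycan recognition genes PGRP-LF fell (−0.78, 12.5%). Their means in pof-mutant triplo 4th (9.79, 8.90 and 6.35) lay near those of wild type (9.88, 8.89 and 6.38). The duplication group stood higher, at 10.95, 9.87 and 7.13 (against wild type, limma adjusted p = 0.0654, 0.00332 and 0.0224). Drs, the antifungal peptide drosomycin, read 13.50, 12.55 and 13.31 against 12.35, 12.05 and 12.10 and rose by 0.95 (SE 0.25, limma adjusted p = 0.0360), 1 of 7 antimicrobial peptide genes (14.3%, against 1.09%). Mal-B2 and Drs kept their calls without replicate 2, and thetaTry and PGRP-LF did not.

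Ovary lists had medians above 0 and no call. The median was 2.08 for 9 chorion genes, 1.13 for 12 egg activation genes, 0.95 for 21 piRNA pathway genes and 0.75 for 18 germline genes, and 0 of these passed. Among 14 expressed heterochromatin regulators outside both regions, a list that holds Pof itself, HP1 genes and some germline factors shared with the piRNA list, all lay above 0 (median 0.60) and 0 passed. Their mean was 9.10 in replicate 2 and 6.99 to 8.18 in the other 5 arrays. The 6 dosage compensation genes of the MSL group had a median of 0.32. Cytosolic ribosomal protein (median 0.06, 29 genes), mitochondrial ribosomal protein (0.03, 68 genes) and proteasome genes (0.0019, 26 genes) lay near 0, with 0 calls. No gene passed among the yolk, eggshell, heat shock, clock, fat body, metallothionein, lysozyme and humoral stress lists, and y was the 1 gene called among 19 pigmentation genes.

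**Figure D5:**
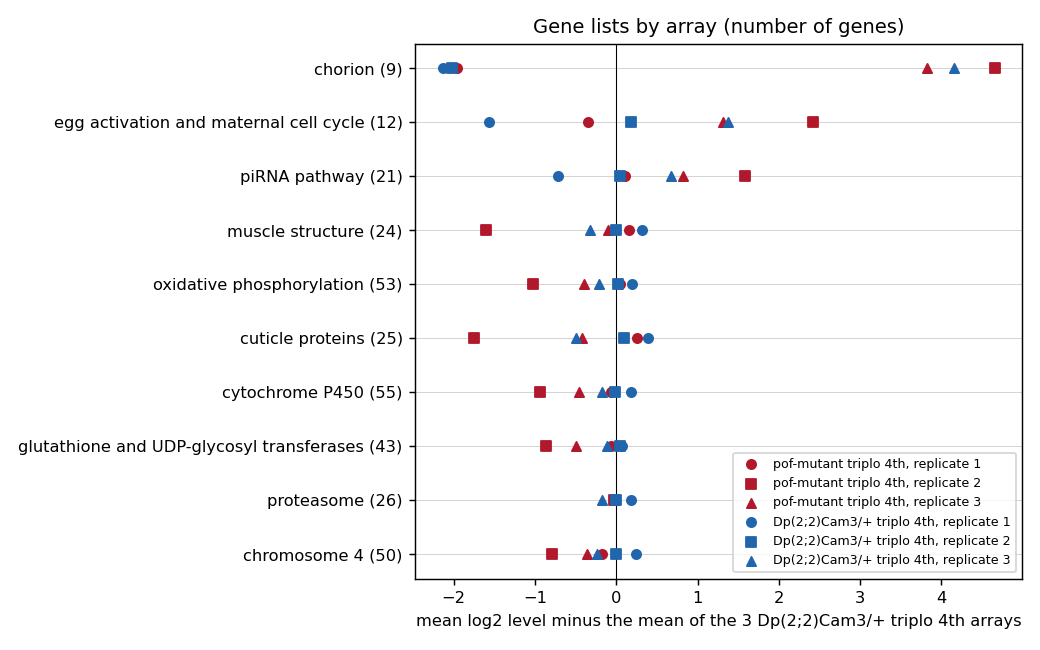
Mean log2 level of 9 gene lists and of chromosome 4 in each array minus the mean of the 3 Dp(2;2)Cam3/+ triplo 4th arrays (horizontal axis), with the number of genes in brackets. Chorion genes split the arrays across both groups, pof-mutant triplo 4th replicate 2 (red squares) lies outermost in most lists and on chromosome 4, and proteasome genes lie together.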

How the data were processed

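The deposited table held log2 values made by the authors with robust multi-array analysis (RMA), which corrects background, normalizes at the probe level and summarises each probe set. Whether all arrays were normalized together is not given in the sources used here. It held 18952 probe sets and 27 arrays, and the number of arrays limits the precision. Array means lay between 6.32 and 6.39. Of the probe sets, 13646 had 1 gene symbol, 402 several and 4904 none, and 13634 matched the RefSeq gene table (Release 6 plus ISO1 MT), used for names and gene order only. Where a gene had several probe sets (1105 genes), the one with the highest mean over all arrays was kept. Following the study, genes with a wild type mean above 6 were kept, and a constant per array set the mean over expressed genes to that of wild type. Limma 3.58.1 in R 4.3.3 was fitted with 1 mean per group over all 27 arrays, with Benjamini-Hochberg adjustment over 7386 genes; the script was tested on simulated data. A gene was called at an adjusted p under 0.05. The named genes were Pof and y, all called and the 6 lowest and 6 highest chromosome 4 genes, 3 at each end of the duplication, the 12 largest non-overlapping named rises and falls elsewhere, and up to 4 called members of each list. Other chromosome 4 genes named were chosen for their roles. The members, gene lists and tests were chosen with earlier results of these data known. Centring, filters, probe sets, array weights, a replicate block, an ovary covariate, the 6 arrays alone and each array left out were tried as alternatives.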

Additional observations from a re-analysis of the deposited data

Results flagged for a closer look

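The limma test of the difference between the comparisons, pof-mutant triplo 4th minus Dp(2;2)Cam3/+ triplo 4th and pof-mutant minus wild type, passed for 20 genes outside the duplication, none of them on chromosome 4. The difference was −2.82 for CG6283, −1.28 for Acat2, −1.02 for sgl, −0.95 for Hsdl2 and −0.84 for Yeti. It was 0.85 for CG8891, 1.25 for r, 1.28 for CG4210, 1.46 for Six4, 1.48 for Cyp6a9, 1.70 for aPKC, 1.85 for l(2)gl and 1.90 for the ribosomal RNA pseudogene 18SrRNA-Psi:CR41602. It was 2.23 for Idh3b, 2.27 for Cyp12d1-d, 2.32 for CG5770, 2.35 for CG5953, 2.67 for Cyp4p2, 3.07 for CG10725 and 3.61 for CG32302.

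These genes differed in which group stood apart. CG5953 had means of 13.34 in pof-mutant triplo 4th, 13.72 in pof-mutant and 13.32 in wild type, against 10.58 in the duplication group. CG4210 and l(2)gl were likewise low in the duplication group alone, with means of 6.68 and 6.78 there and 8.06 to 8.49 in the other 3 groups. Cyp12d1-d had a mean of 6.92 in wild type and of 4.20, 4.57 and 4.28 in pof-mutant triplo 4th, the duplication group and pof-mutant. CG5770 was also high in wild type alone (7.03, against 4.64 to 4.93). The means of Cyp12d1-d, CG5770, Cyp6a9 and 18SrRNA-Psi:CR41602 lay above the expression threshold of 6 in wild type alone, so these 4 genes were tested only because they were high there, and no more is read from them. CG6283 was low in wild type alone (6.12, against 9.18 to 9.52).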

How the results depend on the processing

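The count of called genes, 250, was 152 with a wild type mean above 8, 2 with the 6 arrays alone (523 at an unadjusted p under 0.05), 1413 with array weights, whose fit did not fully converge, and 109 to 1337 with 1 array left out (lowest without duplication replicate 2, highest without pof-mutant triplo 4th replicate 1). The count on chromosome 4, 3, was 0 with the 6 arrays alone, 15 with weights and 1 to 17 with 1 array left out. Zip102B passed in all settings but the 6 arrays alone (adjusted p = 0.0629), and dpr7 and Pur-alpha were lost there and in 4 of 6 leave-outs. The replicate numbers did not pair the groups (correlations of deviations 0.79, −0.21 and −0.24), and a fit with the replicate block called 428 genes, 7 of them on chromosome 4. The chromosome 4 mean stayed below 0, from −0.57 to −0.27. The duplication mean was −0.52 without centring, −0.64 with centring on the median and −0.44 with no filter, and −0.60 to −0.56 with 1 array left out. The 25 genes that differed between the comparisons numbered 61 with no filter, 16 without shared probe sets, 1 with weights, 47 with the replicate block, 49 with the ovary covariate and 13 to 66 with 1 array left out, for which leave-outs of pof-mutant and wild type arrays were chosen after seeing the data. The chromosome 4 mean of that difference, 0.01, lay between −0.13 and 0.18 in the leave-outs and was −0.25 with weights. Without pof-mutant triplo 4th replicate 2, Pof turned to −0.16, Rad23 to −0.042, 4E-T to −0.038 and CG11360 to −0.40, while without replicate 1 they stood at 0.81, 0.50, 0.57 and 0.93. CG11360 also turned to −0.052 with the ovary covariate and −0.0019 without duplication replicate 1, and CG11076 to −0.018 with weights. Of 814 values of named genes under alternatives, 668 kept direction and side of the threshold, 127 lost their call, 12 gained one and 7 turned.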

Other observations

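Among the 4555 genes with a wild type mean of 6 or below, 79 passed when tested without the filter, 62 lower and 17 higher in pof-mutant triplo 4th flies. The same fit called 343 of all 11941 genes, 237 lower and 106 higher, a larger share than among these 4555. Of the 79, 1 lay on chromosome 4 and 9 in the duplication. The maltase gene Mal-B1 had the largest fall, −4.74 (SE 0.36, limma adjusted p = 4.67e-08), followed by CG13155 (−3.56). The largest rises were those of CG42680 (3.77), CG42857 (3.64) and CG8160 (3.44), and TotE, of the Turandot family of stress genes, rose by 2.13. These genes were singled out after their values were seen.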
